A study of Mus musculus with 66 samples.

Results

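The 8 myosin light chain genes Myl1, Myl2, Myl3, Myl4, Myl6, Myl6b, Myl9 and Mylpf were taken by their symbols from an mRNA-Seq table of 22489 mouse genes, and all 8 were present. The cells were C2C12, an established mouse myoblast line that fuses into myotubes when serum is withdrawn. The 20 libraries came from 10 lines, with 1 library per line in each of 2 states. Growing cells were kept in 20% fetal bovine serum and collected before confluence, and differentiated cells were collected 48 h after a change to 2% horse serum at confluence. WT cells carried no tagged histone. The other 9 lines each carried a histone H3 with GFP at its N terminus under a doxycycline-inducible (Tet-On) promoter, delivered by a transposon and selected with doxycycline and G418 and by sorting for GFP. In 3 of them the tagged protein was of the H3.1/H3.2 type (H3.1, H3t, H3.2), and in 6 it was of the H3.3 type (H3.3, H3mm7, H3mm11, H3mm12, H3mm13, H3mm16). Each tagged histone was represented by a single stable line, so that the histone and the line cannot be told apart. A line was the unit of every comparison, and p-values measure only the spread between these lines. The columns headed H3mmT were taken to be the H3t line, since no other line has a similar name.

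Myosin light chains wrap the lever arm of the myosin head, and each head carries an essential and a regulatory light chain. In striated muscle the essential chains are encoded by Myl1 (fast fibres), Myl3 (slow fibres and ventricle) and Myl4 (embryonic muscle and atrium), and the regulatory chains by Mylpf (fast fibres) and Myl2 (slow fibres and ventricle). Myl6 and Myl6b encode essential chains of non-muscle and smooth muscle myosin, the latter also found in slow fibres, and Myl9 encodes a regulatory chain of smooth muscle and non-muscle myosin. Switching on the striated genes and assembling their products into sarcomeres is part of the terminal differentiation of myoblasts.

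The stretches of promoter below show the motif matches found in these genes, since members that move together invite the question of shared sequence. Sequences are from RefSeq promoter windows (GRCm38.p6) that run from 250 bases before to 50 after each start site, and each stretch was placed on mm9, the build of the table, by its only exact match. Capitals mark the motif, and the strand is that of the gene. CAGCTG is an E-box core that reads the same on both strands and is bound by myogenic factors such as MyoD. The CArG box is the core of the serum response element, searched on both strands.
Myl1, chr1:66991837-66991866, minus strand, motif 224 bases before the start: aggtacgtctgtCAGCTGtcaccaaaccaa
Mylpf, chr7:134355059-134355088, plus strand, motif 51 bases before the start: cttcctgggctcCAGCTGctgcaggcctcc
Myl3, chr9:110666087-110666116, plus strand, motif 85 bases before the start: gagccaatgcCCTTTTATGGccctgtccct
Myl6, chr10:127930096-127930125, minus strand, motif 50 bases before the second of 2 start sites: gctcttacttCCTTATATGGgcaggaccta
Myl9, chr2:156601029-156601058, plus strand, motif 161 bases before the start: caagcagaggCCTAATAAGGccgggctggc

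Among the 8 genes, CAGCTG was found in the windows of Myl1, Mylpf and Myl2, and 16.3% of all 32851 windows hold it. It was also found in the window of Myl12a, a non-muscle light chain gene outside the 8. The CArG box was found in the windows of Myl3, Myl6 and Myl9, against 1.63% of all windows. The windows of Myl4 and Myl6b held neither, and no member held a MEF2 site, which 3.19% of windows do. The Myl2 windows lie before the gene start of the mm9 annotation used for positions here and are not printed. The Myl1 and Myl6 stretches lie inside those genes in that annotation, after its gene start. Their distances are counted from the RefSeq start sites alone. These matches are letters in a window and carry no information on binding.

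The table gives FPKM (sequenced fragments scaled to exon length and to the mapped fragments of the library), and the number of reads per library is not known. The FPKM of all genes summed to 409319 in growing and 465247 in differentiated WT cells, below the 583613 to 894105 of the 18 other libraries, and WT values are therefore given separately where they differ. Of 8 skeletal muscle markers, all were at 1 FPKM or more in some differentiated library, and their summed level was 260 to 778 FPKM in growth and 2616 to 11572 FPKM after differentiation. In any library, endothelial markers summed to at most 7.68 FPKM, nearly all of it Cdh5, and immune markers to at most 3.91 FPKM, nearly all of it Cd68. Adipocyte and osteoblast markers summed to at most 35.0 and 14.8 FPKM, mostly Pparg and Runx2, and Adipoq, Plin1, Sp7 and Ibsp were below 1 FPKM throughout. In RNA from whole cultures, more myotubes and more RNA per myotube cannot be told apart.

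The first comparison asked which light chain genes differ between growing and differentiated cells. The genes of embryonic and fast muscle rose from medians under 10 FPKM to medians of 856 FPKM and more, Myl2 rose to a few FPKM, Myl3 hardly appeared, and Myl6 was abundant in both states. Myl6b, counted with the non-muscle genes, also rose in every line. In a limma fit of log2(FPKM + 1), 5 of the 7 members tested were called higher in differentiated cells against 8.87% of the 10954 genes tested. A call needed a Benjamini-Hochberg p, adjusted over all of those genes, under 0.05, and a mean log2 difference no smaller than 1. Myl3 had a mean under 1 FPKM and was not tested, and Myl2, which was called, reached that mean only through differentiated cells. The median difference of the 7 was 3.71 on the log2 scale, and that of all genes was 0.04.

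**Figure D1:**
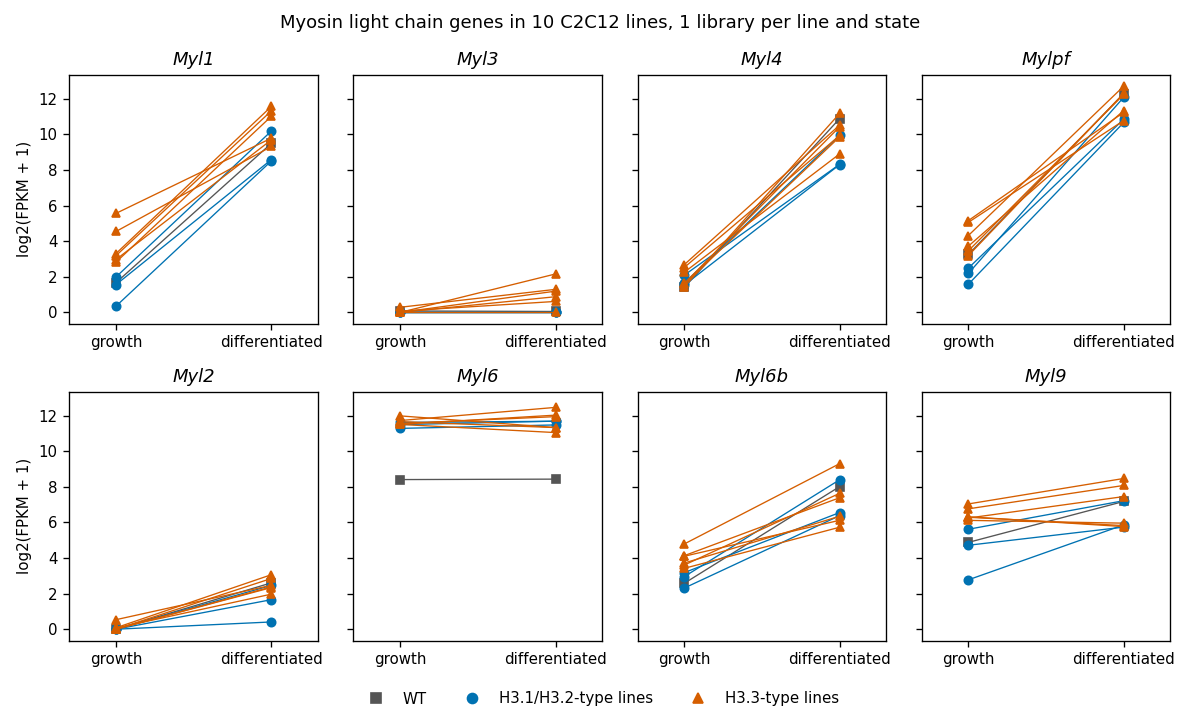
Level of each light chain gene in growing and differentiated cells as log2(FPKM + 1), with a line joining the 2 libraries of each C2C12 line (square, WT; circles, H3.1/H3.2-type lines; triangles, H3.3-type lines). Myl1, Myl4, Mylpf and Myl6b are higher in differentiated cells in 10 of 10 lines with no overlap of the states, whereas Myl6 stays level and is low only in WT.

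Myl1 (chr1:66970869-66991978, minus strand) encodes the fast essential chains. In growth its lowest, median and highest values were 0.274 FPKM (H3.1), 6.45 FPKM and 46.3 FPKM (H3mm7). After differentiation they were 363 FPKM (H3.1), 856 FPKM and 3049 FPKM (H3mm12). The H3.1 line was the lowest in both states, and every differentiated library lay above every growth library. The mean rose from 2.80 ± 1.51 to 9.95 ± 1.07 on the log2(FPKM + 1) scale (SD, n = 10 lines each), a difference of 7.16 (SE 0.55, limma adjusted p = 4.88e-10). By line, the FPKM ratio of differentiated to growing cells ran from 19.1 in H3mm7 to 1329 in H3.1. The smallest and the largest ratio thus belonged to the lines with the highest and the lowest growth value.

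Myl4 (chr11:104411977-104457067, plus strand), the embryonic essential chain, started from a narrow range. In growth it lay between 1.64 FPKM (WT) and 5.41 FPKM (H3mm7), with a median of 2.11 FPKM. After differentiation it reached 315 FPKM (H3t) to 2315 FPKM (H3mm12), with a median of 985 FPKM. WT passed from the lowest growth value to the second highest differentiated value, 1893 FPKM. The states did not overlap, and the difference was 7.95 on the log2 scale (SE 0.33, limma adjusted p = 2.08e-13), from 1.88 ± 0.47 to 9.83 ± 1.01 (SD, n = 10 lines each).

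Myl3 (chr9:110666150-110672308, plus strand), the slow and ventricular essential chain, was listed at 0 in 7 of 10 growth libraries and was at most 0.221 FPKM (H3.3) in the others. After differentiation it was listed at 0 in H3.1, H3t, H3.2 and H3mm12 and was 0.0373 FPKM in WT. It was 0.534 FPKM in H3mm11, 0.843 FPKM in H3mm16, 1.29 FPKM in H3mm7, 1.46 FPKM in H3.3 and 3.47 FPKM in H3mm13. The values above 0.5 FPKM were thus all in differentiated cells of H3.3-type lines. A value of 0 in a table without read counts may be a failed estimate, so that no fold change is given. Of 8 cardiac markers, 5 were at 1 FPKM or more in some library of each state, and their sum was 21.3 to 52.0 FPKM in growth and 17.7 to 55.2 FPKM after differentiation. Tnni3 was 0.0942 to 2.30 FPKM in growth and 1.46 to 33.4 FPKM after differentiation, Gata4 was 7.04 to 15.1 FPKM over both states, and Nkx2-5 and Nppb reached 32.6 and 15.6 FPKM in growth, whereas Nppa and Ryr2 were below 1 FPKM in all 20 libraries. The part of these genes in the Myl3 values was not tested.

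Mylpf (chr7:134355122-134357812, plus strand), the fast regulatory chain, was the most abundant striated light chain gene of every differentiated library. In growth it ranged from 1.99 FPKM (H3.1) through a median of 9.28 FPKM to 34.7 FPKM (H3mm7). After differentiation it ranged from 1629 FPKM (H3.1) through 3473 FPKM to 6711 FPKM (H3mm12). The states did not overlap, and the spread between lines narrowed, with a highest value 17.4 times the lowest in growth and 4.12 times the lowest after differentiation. The difference was 8.21 on the log2 scale (SE 0.41, limma adjusted p = 9.81e-13), from 3.44 ± 1.18 to 11.65 ± 0.76 (SD, n = 10 lines each).

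Myl2 (chr5:122550960-122563481, plus strand), the slow and ventricular regulatory chain, was listed at 0 in 7 of 10 growth libraries and reached at most 0.449 FPKM (H3.3). After differentiation it was 0.327 FPKM in H3t, 2.16 FPKM in H3.1 and 2.92 to 7.36 FPKM in the other 8 lines, the highest again H3mm12. It was higher in 10 of 10 lines, but the states overlapped through the H3t library. Myl2 reached the mean of 1 FPKM needed for testing only through its differentiated libraries, so its call is partly set by the filter. The difference on the log2(FPKM + 1) scale was 2.15 (SE 0.23, limma adjusted p = 7.22e-08), a scale that understates changes of genes this low. It was 4.76 with a pseudocount of 0.1 FPKM and 0.82, short of a call, with one of 5 FPKM. Among the 10954 genes tested, 8.85% had every differentiated library above every growth library, and Myl1, Myl4, Mylpf and Myl6b were the members that did.

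The 5 striated genes together made up 5.52 FPKM (H3.1) to 86.4 FPKM (H3mm7) in growth and 2314 FPKM (H3.1) to 12082 FPKM (H3mm12) after differentiation. The latter is 0.373 to 1.64% of all FPKM of a library. Within the essential class, Myl4 took 26.6% (H3mm16) to 72.4% (WT) of the differentiated FPKM of Myl1, Myl3 and Myl4, with a median of 45.5%. In growth this share ran from 10.5% (H3mm7) to 92.3% (H3.1), where the sum itself was 51.7 and 3.53 FPKM. Its mean change was 12.7 percentage points, higher in 8 of 10 lines, and did not pass an exact 2-sided sign-flip permutation test (p = 0.162, adjusted p = 0.429 over 6 share tests). Within the regulatory class, Myl2 took 0.0176 to 0.231% of the differentiated FPKM of Myl2 and Mylpf. This share was higher after differentiation in 7 of 10 lines, but its mean change was -0.279 percentage points and did not pass (exact permutation p = 0.938). The sign rests on the growing H3.3 library, where the share was 3.55% of 12.6 FPKM. Without that line the mean change was 0.0653 percentage points. As a log2 ratio with a pseudocount of 1 FPKM it was -6.06 and passed (exact permutation, adjusted p = 0.00586). Growing Myl2 was at most 0.449 FPKM, below that pseudocount, so the log2 ratio mostly follows the rise of Mylpf. It does not show a fall of the Myl2 share.

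The ratio of regulatory (Mylpf and Myl2) to essential (Myl1, Myl3 and Myl4) FPKM in differentiated cells did not overlap between H3.3-type and H3.1/H3.2-type lines. It was 2.39 in H3.1, 2.66 in H3t and 2.02 in H3.2, and 1.92 in WT. It was 1.43 in H3.3, 1.03 in H3mm7, 1.57 in H3mm11, 1.25 in H3mm12, 1.47 in H3mm13 and 1.39 in H3mm16. All 6 H3.3-type lines were below all 3 H3.1/H3.2-type lines and WT. The ratio of Mylpf to Myl1 showed the same separation of types, at 1.90 to 3.13 in H3.3-type and 3.73 to 4.84 in H3.1/H3.2-type lines, whereas the ratio of Mylpf to Myl4 overlapped. In WT the ratio to Myl1 was 6.96, above both types. The ratio to Myl4 was 2.66 in WT, within the H3.3-type range and below the H3.1/H3.2-type lines. The ratio of regulatory to essential chains was chosen after its values were seen and was not tested. How often other gene ratios separate these lines in the same way was not computed. The ratios compare levels per length within a library.

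**Figure D2:**
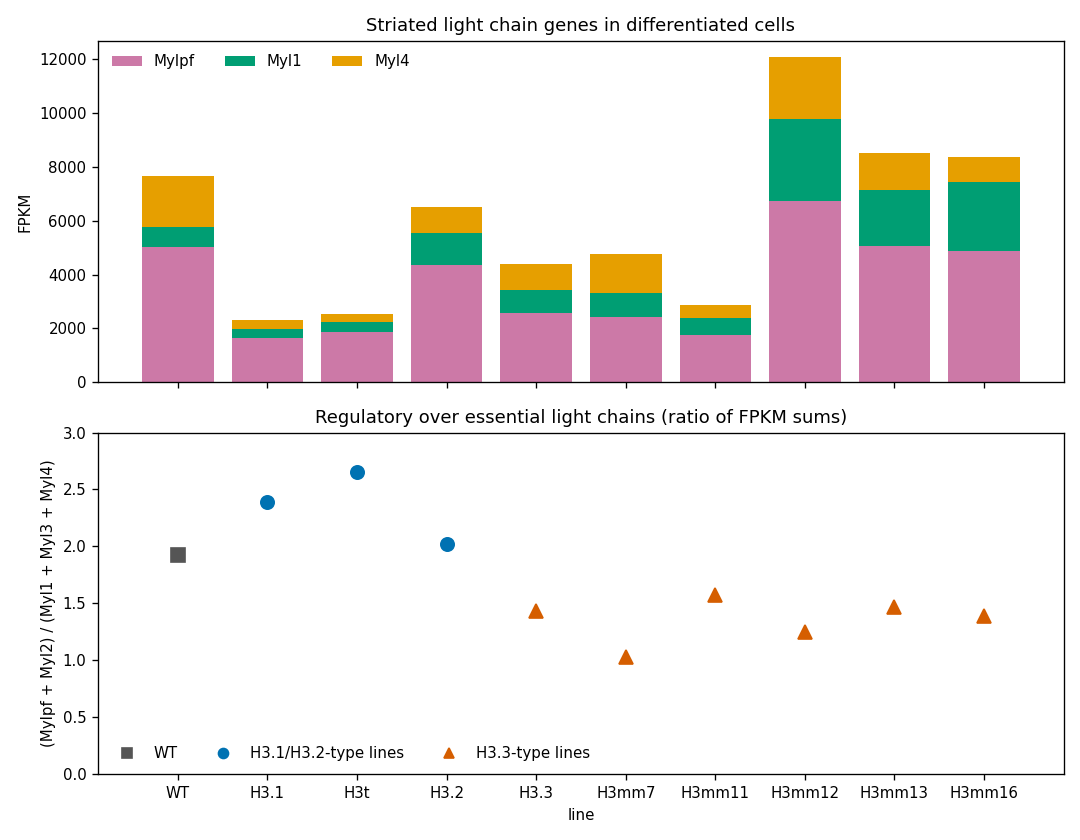
Top, FPKM of Mylpf, Myl1 and Myl4 in differentiated cells of each line as stacked bars from 0 (Myl2 and Myl3, at most 7.36 FPKM, are too low to draw). Bottom, ratio of the regulatory to the essential striated light chains in the same libraries, where the 6 H3.3-type lines lie between 1.03 and 1.57 and the other 4 lines between 1.92 and 2.66.

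Myl6 (chr10:127927916-127930931, minus strand) was abundant before and after differentiation. In the 9 GFP-H3 lines it was 2488 to 4050 FPKM in growth and 2114 to 5636 FPKM after differentiation. In WT it was 338 and 344 FPKM. The WT library was thus 7.36-fold below the lowest GFP-H3 line in growth and 6.14-fold below it after differentiation, whereas for the other members WT lay within the range of the lines or, for Myl4 in growth, just below it (1.64 against 1.70 FPKM). The difference between states was 0.07 on the log2 scale (SE 0.45, limma adjusted p = 0.91), and 7 of 10 lines were higher. Without WT it was 0.07 with an adjusted p of 0.708.

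The exons of Myl6 are hard to map uniquely. Of its 31-base exon words, 10.9% occurred once in mm9, with a median of 4 places per word, against 76.5% for Myl1, 95.8% for Myl6b and 99.1 to 100% for the other 5 members. The value of a gene with near-identical copies depends on how reads with several places were counted. The study's methods describe the mapping for the GFP-H3 lines, and the part of repeated sequence in the WT value was not tested. Myl6 and Myl6b are neighbours on the same strand, with 281 bases between them and 22 shared words.

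**Figure D3:**
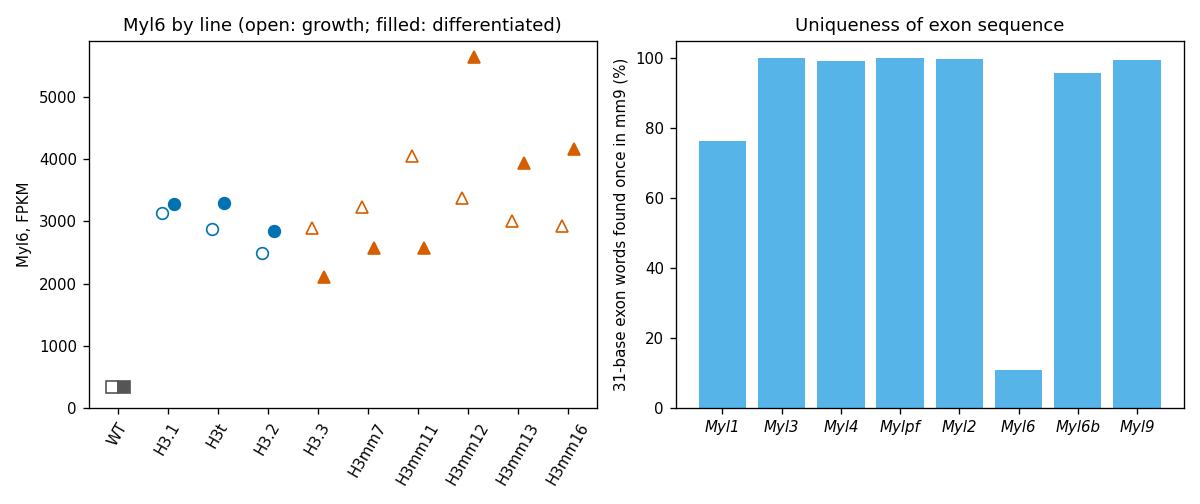
Left, Myl6 in each line in FPKM (open symbols, growth; filled, differentiated; square, WT; circles, H3.1/H3.2-type; triangles, H3.3-type), with WT at 338 and 344 FPKM and every other library at 2114 FPKM or above. Right, share of 31-base exon words of each light chain gene that occur once in the mm9 genome, 10.9% for Myl6.

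Myl6b (chr10:127931213-127935741, minus strand) rose in every line. In growth it was 3.96 FPKM (H3t) to 26.6 FPKM (H3mm12) with a median of 10.4 FPKM, and after differentiation 52.1 FPKM (H3mm11) to 630 FPKM (H3mm12) with a median of 130 FPKM. The states did not overlap. The difference was 3.71 on the log2 scale (SE 0.41, limma adjusted p = 1.08e-07), and the FPKM ratio ran from 4.25 in H3mm7 to 51.7 in WT. As a share of Myl6 plus Myl6b, it went from 0.137 to 1.45% in growth to 1.98 to 10.6% in differentiated GFP-H3 lines and 42.8% in WT, where Myl6 is low. The share was higher in 10 of 10 lines (mean change 8.04 ± 12.1 percentage points, SD, exact sign-flip permutation p = 0.00195, the smallest that 10 lines can give, adjusted p = 0.0117). Without WT the mean change was 4.35 percentage points (adjusted p = 0.0234, exact permutation test).

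Myl9 (chr2:156601156-156607394, plus strand), the smooth muscle and non-muscle regulatory chain, varied mostly between lines. In growth it was 5.84 FPKM (H3.1) to 130 FPKM (H3mm12) with a median of 71.6 FPKM, and after differentiation 52.3 FPKM (H3.2) to 353 FPKM (H3mm12) with a median of 103 FPKM. It was higher in 7 of 10 lines and the states overlapped. The difference of 1.08 on the log2 scale (SE 0.48) did not pass in the main comparison (limma adjusted p = 0.0615). With the line as a block, so that the 2 libraries of a line are paired, the same difference passed (adjusted p = 0.0115), and 6 of the 7 members were then called. With the block and without WT it was 0.94 (adjusted p = 0.0282), short of the required difference of 1. Without H3.3 or without H3mm11 it passed also unblocked, at 1.26 and 1.25. Of 7 smooth muscle markers, 5 were at 1 FPKM or more in some library of each state, and their sum was 558 to 1575 FPKM in growth and 765 to 3286 FPKM after differentiation. Most of it was Acta2, which myoblasts also express, at 421 to 1189 and 701 to 3070 FPKM. Tagln was 70.9 to 338 and 35.2 to 204 FPKM, Smtn 19.8 to 39.5 and 13.3 to 34.4 FPKM, and Cnn1 and Lmod1 reached at most 21.2 and 7.51 FPKM. Myh11 and Myocd were below 1 FPKM in every library. The part of these genes in the Myl9 values was not tested.

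The other regulatory light chain genes of non-muscle myosin, Myl12a and Myl12b, were not called. Myl12a was 464 to 651 FPKM in growth and 415 to 948 FPKM after differentiation (log2 difference 0.27, limma adjusted p = 0.1). Myl12b was 104 to 215 FPKM and 92.7 to 307 FPKM (log2 difference 0.02, limma adjusted p = 0.939). Myl7 and Myl10 were at most 2.04 and 1.11 FPKM and were not tested, and Myl5 had no row. Regulatory chains outside the sarcomere were therefore expressed in every library, with Myl12a above Myl9 throughout.

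**Figure D4:**
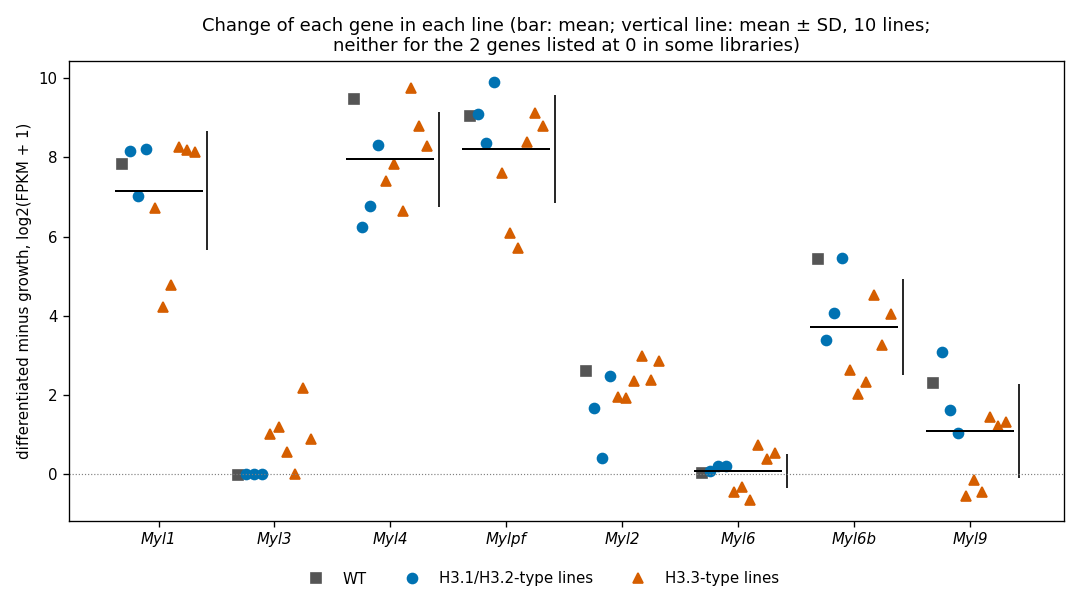
Difference of differentiated minus growing cells on the log2(FPKM + 1) scale for each light chain gene in each of 10 lines (square, WT; circles, H3.1/H3.2-type lines; triangles, H3.3-type lines; horizontal bar, mean; vertical line, mean ± SD, omitted for Myl2 and Myl3, which are listed at 0 in some libraries). Below 0 lie the H3.3, H3mm7 and H3mm11 lines for Myl6 and Myl9 and, for Myl3, WT by 0.03, while all 10 lines lie above 4 for Myl1, Myl4 and Mylpf.

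The partners of the light chains moved as follows. Of all 10954 genes tested, 972 were called higher in differentiated cells and 921 lower. Of 14 myosin heavy chain genes, 6 were tested, 4 rose and 1 fell (median log2 difference 1.31). Myh3, the embryonic heavy chain, rose most, from 0.0211 to 0.536 FPKM in growth to 54.9 to 1060 FPKM after differentiation (log2 difference 7.26, limma adjusted p = 1.72e-11). Myh7, the slow heavy chain, rose by 1.95 and Myh8, the perinatal one, by 1.37 on the log2 scale (limma adjusted p = 0.000168 and 0.0115). Both were low, with differentiated medians of 1.61 and 0.577 FPKM and highest values of 20.4 FPKM each. The gene that fell was the non-muscle Myh10, named here after its value was seen, by 1.29 on the log2 scale (limma adjusted p = 3.28e-07). Of 15 genes for light chain kinases, phosphatase subunits and their regulators, 12 were tested, and 1 was called (median 0.19). It was Mylk4, a striated muscle kinase of the family, at 0.0107 to 0.235 FPKM in growth and 0.508 to 13.8 FPKM after differentiation (log2 difference 1.31, limma adjusted p = 0.000603). Of 8 myogenic regulators, 6 were tested and 3 rose (median 1.16). Myog, which drives terminal differentiation, rose by 6.34, Mef2a by 1.92 and Mef2c by 1.42 on the log2 scale (limma adjusted p = 1.49e-10, 1.28e-09 and 0.00509). Differentiated Mef2c had a median of 1.58 FPKM and a highest value of 26.6 FPKM. The heavy chain genes called higher, Mylk4 and Mef2c were below 1 FPKM in every growth library. They passed the filter only through differentiated cells, so the counts of genes that rose are partly set by the filter.

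The second comparison asked whether lines with an H3.3-type histone differ from those with an H3.1/H3.2-type histone, with WT left out. In growth Myl1, Mylpf, Myl6b and Myl9 lay higher in the H3.3-type lines, but 0 of 6 members tested were called by limma, against 0.566% of 10607 genes. At an unadjusted p under 0.05 there were 4 of 6, against 17.7% of all genes. Those 4 had every H3.3-type line above every H3.1/H3.2-type line, as had 5.35% of genes.

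Myl1 was 0.274, 1.95 and 2.97 FPKM in H3.1, H3t and H3.2, and 6.07 to 46.3 FPKM with a median of 8.50 FPKM in the 6 H3.3-type lines. The difference was 2.43 on the log2 scale (SE 0.64, limma adjusted p = 0.104), and 3.197 and 1.44 with pseudocounts of 0.1 and 5 FPKM. Mylpf was 1.99, 4.61 and 3.56 FPKM in the same 3 lines and 8.14 to 34.7 FPKM in the H3.3-type lines (log2 difference 2.07, SE 0.44, limma adjusted p = 0.0545). Both genes were highest in H3mm7, with H3mm11 next.

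Myl9 was 5.84, 48.0 and 25.3 FPKM in H3.1, H3t and H3.2 and 68.3 to 130 FPKM in the H3.3-type lines (log2 difference 2.09, SE 0.50, limma adjusted p = 0.081). Without H3.1 the difference was 1.295. Myl6b was 8.05, 3.96 and 6.73 FPKM against 9.69 to 26.6 FPKM (log2 difference 1.15, SE 0.28, limma adjusted p = 0.0784). Myl4 overlapped (log2 difference 0.26, limma adjusted p = 0.654), as did Myl6 (0.19, limma adjusted p = 0.443). Growing WT cells, not in the test, lay with the H3.1/H3.2-type lines for Myl1, Myl6b and Myl9 and among the H3.3-type lines for Mylpf.

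**Figure D5:**
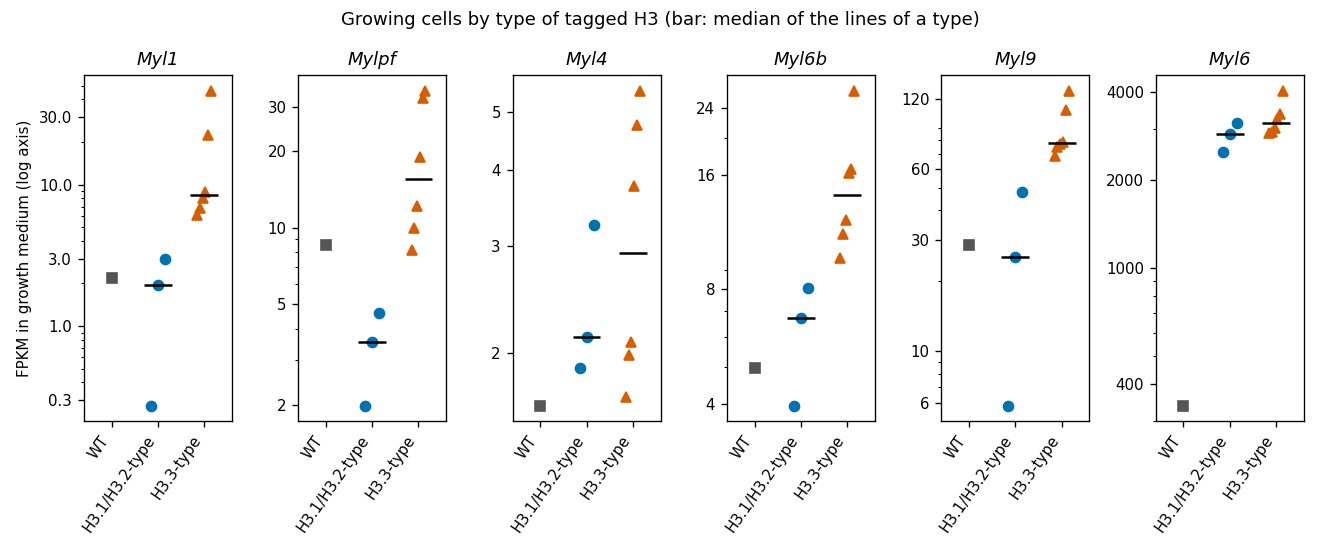
FPKM of 6 light chain genes in growing cells on log axes, each gene with its own range, for WT (square), the 3 H3.1/H3.2-type lines (circles) and the 6 H3.3-type lines (triangles), with a bar at the median of each type. For Myl1, Mylpf, Myl6b and Myl9 the triangles lie above all circles, and for Myl4 and Myl6 they overlap.

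Of the 8 skeletal muscle markers, 5 also had every growing H3.3-type line above every growing H3.1/H3.2-type line (Myod1, Myog, Des, Acta1 and Tmem8c), and 3 overlapped (Myf5, Ckm and Actn2). Among the 10607 genes tested in growth, 5.35% had this separation. Myog was 7.35 to 23.1 FPKM in H3.3-type and 0.106 to 3.21 FPKM in H3.1/H3.2-type lines, and Myod1 was 26.7 to 110 FPKM against 1.61 to 25.1 FPKM. Myf5 was 25.3 to 64.9 FPKM against 38.4 to 56.1 FPKM. The 8 markers summed to 402 to 778 FPKM against 260 to 305 FPKM, and to 390 FPKM in WT. The part of these genes, or of cells further on in differentiation, in the light chain values was not tested.

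After differentiation the types overlapped for every member, and 0 of 7 tested were called by limma, against 0.00919% of 10878 genes. At an unadjusted p under 0.05 there were 3 of 7, against 11.9% of all genes. Myl1 was 363, 384 and 1169 FPKM in H3.1, H3t and H3.2 and 640 to 3049 FPKM in H3.3-type lines (log2 difference 1.36, SE 0.58, limma adjusted p = 0.402). Myl4 was 319, 315 and 990 FPKM against 478 to 2315 FPKM (1.28, SE 0.50, limma adjusted p = 0.378). In both genes H3.2 lay within the H3.3-type range and H3.1 and H3t below it. For Myl2 the difference was 1.00 (SE 0.39, limma adjusted p = 0.379), but 0.45 without H3t, 0.45 with a pseudocount of 5 FPKM and 1.54 with one of 0.1 FPKM. For Mylpf it was 0.57 (SE 0.47, limma adjusted p = 0.652), but 0.03 under quantile normalization and 0.30 to 1.01 with a line left out, the highest without H3.2. The SE of the members other than Myl6 was 0.39 to 0.75, and with 3 lines of one type these p-values do not show that the types are alike. None of the 3 shares above differed between types in differentiated cells by an exact permutation test of 6 against 3 lines (p = 0.214 to 0.869).

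The change with differentiation was also compared between types, from 1 difference per line, and 0 of 7 members were called by limma, against 0.0274% of 10931 genes. At an unadjusted p under 0.05 there was 1 of 7, Myl9, against 16.2% of all genes. The mean difference of Myl9 was 1.90 ± 1.07 on the log2 scale in the 3 H3.1/H3.2-type lines and 0.46 ± 0.95 in the 6 H3.3-type lines (SD, difference -1.44, SE 0.59, limma adjusted p = 0.274). Mylpf changed by 9.12 ± 0.77 and 7.62 ± 1.43 (difference -1.50, SE 0.76, limma adjusted p = 0.372). For Myl4 and Myl2, the 2 members above 0, the difference was 1.02 and 0.89 (limma adjusted p = 0.4661 and 0.331). For Myl6b and Myl1 it was -1.17 and -1.07 (limma adjusted p = 0.378 and 0.601). With a pseudocount of 5 FPKM that of Myl1 was -0.08. For Myl9, Myl4 and Myl2, 1 line set much of the size, whereas Mylpf ran from -1.87 to -1.11 with a line left out. The difference of Myl9 was -0.85 without H3.1, that of Myl4 was 0.59 without H3.1 and 1.62 without H3.2, and that of Myl2 was 0.34 without H3t and 1.36 without H3.2. That of Mylpf was -0.85 with a pseudocount of 5 FPKM, and that of Myl2 was 0.43. The types share no library, but their differentiated and growth values enter both this comparison and those above.

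The H3.3-type lines were not uniform. In H3.3, H3mm7 and H3mm11, Myl6, Myl9 and Myl12a were lower in differentiated than in growing cells, and each of these genes was higher in the other 7 lines. The ratio of differentiated to growing cells for Myl6 was 0.729, 0.793 and 0.635 in these 3 lines, and for Myl9 0.678, 0.895 and 0.719. In H3mm12, H3mm13 and H3mm16 the ratios were 1.67, 1.31 and 1.43 for Myl6 and 2.71, 2.33 and 2.50 for Myl9. For Myl1, Mylpf and Myl6b too the 3 smallest changes were in H3.3, H3mm7 and H3mm11, at 4.23 to 6.73, 5.72 to 7.62 and 2.02 to 2.63 on the log2 scale. Among all 10954 genes, 10.0% had their 3 smallest changes in these 3 lines. The study set these lines apart by principal components of the same libraries. It then measured top contributing genes, none a light chain gene, by RT-PCR amplicon sequencing with 3 biological replicates. There Avil was higher in these lines, and Mgp differed only in H3mm7. The lines are singled out here after their values were seen, so that the pattern is described without a test.

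By differentiated level rather than change, the H3mm12 library held the highest value of 7 of the 8 genes, Myl3 being the exception, where it was listed at 0. It held the highest differentiated value of 9.75% of the 10954 genes tested. H3mm16 was second for Myl1, Myl2, Myl6 and Myl9, and H3mm13 for Mylpf. The lowest differentiated values of Myl1, Myl2, Myl4 and Mylpf were in H3.1 or H3t. With 1 library per line, the order of neighbouring lines such as H3mm13 (5070 FPKM) and WT (5027 FPKM) for Mylpf carries no measure of error.

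The genes whose log2(FPKM + 1) profiles over the 20 libraries were most like those of the members, by Pearson correlation, are named here as a description. For Mylpf they were Tnni2, Tmem8c and Tnnc1, for Myl1 Tnnt3, Tnni2 and Acta1, for Myl4 Mybph, Tnni1 and Klhl40, and for Myl2 Chi3l1, Csrp3 and Gpr155. For Myl6b they were Ccdc23, Aamdc and Usp2, for Myl9 Slc25a20, Lmod1 and Musk, and for Myl6, whose profile is set mostly by WT, Ube2v1, Atp5l and Cox7c. These libraries form 2 clusters by state, so that no coefficient over all 20 is given.

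Over the 10 differentiated libraries alone, the nearest genes to Mylpf were Myoz2 (r = 0.979), Tnni2 (r = 0.979) and C78339 (r = 0.965). Those nearest to Myl4 were Hras1, Ttc9 and Tmem189 (r = 0.953 to 0.958), to Myl1 Ndufb2, Acta1 and Cox4i1 (r = 0.930 to 0.935), and to Myl2 Akap8l, Ubxn1 and Cpne2 (r = 0.919 to 0.928). Without the 2 libraries farthest from the median of the member, the r of Ubxn1 and Cpne2 with Myl2 was 0.467 each, and that of the other nearest genes in these 10 libraries was 0.790 or more. To Myl6 they were Cyb5d1, Cpne8 and Hmgn2, to Myl6b Dusp28, 4833439L19Rik and Ehd4, and to Myl9 Hibadh, Ctnnal1 and Jarid2. Among the members themselves, Mylpf went with Myl6b (r = 0.888), Myl1 (r = 0.857) and Myl4 (r = 0.834), and Myl6 with none of the striated genes beyond r = 0.364. Each of these coefficients describes 10 lines with 1 library each that share the WT shift, and no p is given.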

How the data were processed

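RNA from growing and differentiated C2C12 cells of 10 lines was reverse transcribed with oligo dT and sequenced with 1 library per line and state. The authors mapped reads to mm9 with TopHat2 2.0.8 and deposited FPKM values per gene from Cuffdiff of Cufflinks 2.0.1 at default settings (submitters' processing notes and the study's methods, which name the GFP-H3 lines). Read counts are not given, so that the depth and the counting error are unknown. No scaling was added. Values were analysed as log2(FPKM + 1) in limma 3.58.1 (R 4.3.3, trend and robust) for genes with a mean of at least 1 FPKM over the libraries of each fit. Calls required p under 0.05 after Benjamini-Hochberg correction over all genes of the fit and a log2 difference of 1 or more. The fit was tested on simulated data, with changes larger than the type differences reported here and no pairing of libraries by line. Shares of FPKM were compared by 2-sided exact permutation tests over lines. Alternatives were pseudocounts of 0.1 and 5 FPKM, no filter or a mean of 5 FPKM, quantile and median ratio scaling, limma without trend and robust, each line left out, WT left out, and the line as a block. The 2 libraries of a line come from the same cell line, and their deviations from the state means correlated at 0.273 to 0.877 over genes, each line best with itself in 10 of 10. Gene positions and exon words are from mm9 and GENCODE vM1, and promoters from RefSeq (GRCm38.p6). The 8 genes are named in full. Of the lists of heavy chains, kinases and regulators, up to 3 called genes with the largest difference are named, and for each member the 3 genes of most similar profile. The members and lists were chosen with earlier results of these data known. The 3′-seq tables hold histone genes only and were not used.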

Additional observations from a re-analysis of the deposited data

Results flagged for a closer look

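In each state the 10 libraries were checked for a single value that stands apart, by the gap to its nearest neighbour over the whole range (against Dixon's 95% critical value). Of 16 groups checked, 5 had such a library. For normally distributed values chance flags about 1 in 20 groups. FPKM need not be normal, and 2 of the 5 groups hold 7 values of 0 and concern the same growing H3.3 library. Another 2 concern WT, so that the count is not read against that rate. Myl6 stood apart in WT in both states, at 338 FPKM in growth and 344 FPKM after differentiation. Myl2 stood apart in the differentiated H3t library at 0.327 FPKM, and in the growing H3.3 library at 0.449 FPKM, where 7 of 10 libraries are listed at 0. Myl3 stood apart in the growing H3.3 library at 0.221 FPKM, again beside 7 values of 0. The growing and differentiated H3.3 libraries also list the most genes above 0, 16865 and 16829 genes, against 13858 to 15945 in the other 18. The part of this in the low Myl2 and Myl3 values was not tested.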

How the results depend on the processing

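Myl1, Myl4, Myl6b and Mylpf remained called higher in differentiated cells in every alternative run, with log2 differences of 6.36 to 7.54, 6.88 to 8.39, 3.28 to 3.90 and 7.68 to 8.49. Myl2 was not called with a pseudocount of 5 FPKM (0.82), and with a mean of at least 5 FPKM it was not tested. Genes called numbered 1893, and 1848 to 1978 with a line left out. They numbered 1093 with a pseudocount of 5 FPKM and 1910 with the line as a replicate block. Among the members, the block changed only the call of Myl9. Myl6 turned to -0.17 under quantile normalization and ran from -0.0076 (without H3mm12) to 0.15 with a line left out. Between types in growth, 60 genes were called, but 92 and 18 with pseudocounts of 0.1 and 5 FPKM, 26 without a filter, 31 with a mean of 5 FPKM, and 31 to 61 with a line left out. Members called were 1 in place of 0 (Mylpf) with the pseudocount of 0.1 FPKM, quantile and median ratio scaling, without trend and robust, and without H3mm13, and 1 (Myl9) without H3.1 or without H3t, a range of 0 to 1 with a line left out. Between types after differentiation, 0 to 4 genes were called with a line left out, Myl6 turned to -0.43 under quantile normalization and ran from -0.082 (without H3mm12) to 0.20, and Myl6b ran from -0.47 to 0.62, positive without H3.2, H3.3, H3mm7 or H3mm11. For the change between types, 3 genes were called, 0 with a pseudocount of 0.1 FPKM or no filter, 5 with a pseudocount of 5 FPKM or quantile normalization, and 0 to 30 with a line left out, the 30 without H3.2. Myl6 ran from -0.26 to 0.017, the last without H3mm11. The change in the Myl4 share ran from 8.34 to 19.2 percentage points with a line left out and passed only without H3.1 (exact permutation, adjusted p = 0.0352). The change in the Myl2 share ran from -0.336 to 0.0653, turning without H3.3. As a log2 ratio it was -6.06 and passed (exact permutation, adjusted p = 0.00586). With growing Myl2 below the pseudocount, that ratio mostly follows Mylpf. The type difference of the Myl4 share ran from -4.59 to 2.58 and that of the Myl6b share from -2.17 to 1.89 percentage points. The causes were not tested. With the depth unknown, no counting error can be given for low values such as those of Myl2 and Myl3.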
